A study of Mus musculus with 28 samples.

Results

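The Oct4 sites described here were the autosomal Oct4 ChIP-seq peaks of WT library R2 that overlapped, by at least 1 bp, a peak in both Spen KO libraries R1 and R2. They numbered 963 of the 4045 autosomal peaks of the WT R2 list (23.8%) and are called common sites. WT library R1 was not used to choose them. Because peak calls in WT R2, Spen KO R1 and Spen KO R2 chose the sites, fold enrichment in those libraries is given as a description, and WT R1, the histone marks, the distance to genes and the DNA sequence are the measures the choice did not use.

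The study profiled the haploid mouse line HATX, embryonic stem cells (mESCs) carrying a doxycycline-inducible Xist transgene, as WT cells and as clone 2 of the Spen KO, with Spen deleted. Both genotypes were grown in medium with serum and LIF on gelatin, and the labels name no doxycycline treatment. All Spen KO libraries came from a single clone, and the methods describe the 2 libraries of a genotype as technical replicates, so the spread between libraries may not cover the spread between cultures. The 28 samples were 16 ChIP and 12 input libraries. Depth is unknown, since the lists hold peaks and no read counts.

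Oct4, encoded by Pou5f1, is a POU-domain transcription factor required to keep mESCs pluripotent. It binds an 8-base DNA word called the octamer, often beside a binding site of its partner Sox2, and many of its sites in mESCs lie in enhancers away from promoters. H3K27Ac marks active enhancers and promoters, H3K4me3 marks promoters, and H3K9me3 marks silenced chromatin.

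The 6 sequences printed here come from common sites near genes of pluripotency. They are the 6 with the highest mean fold enrichment among the named sites near such genes that held an octamer-type word within 100 bp of the WT R2 summit and outside exons, a selection made after the values were seen. They are in mm9 (NCBIM37), 5′ to 3′ on the strand given, and capitals mark the matched word.
Mycn, chr12:12950064-12950143, minus strand: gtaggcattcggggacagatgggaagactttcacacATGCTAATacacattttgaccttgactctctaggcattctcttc
Tet2, chr3:133187665-133187744, plus strand: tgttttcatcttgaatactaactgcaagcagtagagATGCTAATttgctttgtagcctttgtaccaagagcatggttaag
Dppa3, chr6:122574619-122574698, minus strand: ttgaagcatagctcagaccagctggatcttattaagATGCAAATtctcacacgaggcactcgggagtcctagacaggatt
Tfcp2l1, chr1:120522097-120522176, plus strand: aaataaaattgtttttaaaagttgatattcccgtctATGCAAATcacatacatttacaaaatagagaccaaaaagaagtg
Pou5f1, chr17:35640962-35641042, minus strand: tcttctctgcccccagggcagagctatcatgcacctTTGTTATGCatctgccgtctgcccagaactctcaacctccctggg
Trim71, chr9:114493468-114493547, plus strand: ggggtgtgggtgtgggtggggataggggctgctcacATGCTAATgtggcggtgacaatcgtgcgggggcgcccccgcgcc
The Dppa3 and Tfcp2l1 sites hold the octamer itself, the Mycn, Tet2 and Trim71 sites hold a variant of it, and the Pou5f1 site holds a shortened joint Sox2 and Oct4 word. The Tet2 site lies in an intron, and the others lie outside protein-coding genes.

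The WT R1 list stood apart from the other Oct4 lists. Of its 1783 autosomal peaks, 73.5% lay within 1000 bp of a protein-coding transcription start site (TSS), against 21.1% of all autosomal WT R2 peaks. Of the 265 WT R1 peaks at common sites, 16.6% were within 1000 bp of a TSS, against 83.5% of its other peaks. The first share follows from where the common sites lie, since 12.6% of all common sites were that close. Of common sites with a WT R1 peak 17.9% were that close, against 10.6% of those without one. The labelled cell type was checked by H3K27Ac and H3K4me3 within 1000 bp of a TSS in WT cells, which 20.0% and 66.3% of all autosomal protein-coding genes carried. H3K27Ac was called at 8 of 8 mESC markers, 0 of 11 fibroblast markers and 0 of 8 primitive endoderm markers in both genotypes. H3K4me3 was less discriminating, with a WT call at 8 of 8 mESC markers, 4 of 11 fibroblast markers and 8 of 8 primitive endoderm markers.

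WT R1, the library the choice did not use, had a peak at 262 common sites (27.2%, Wilson 95% interval 24.5 to 30.1). The share was 3.34% (2.76 to 4.04) at the 3082 other autosomal WT R2 peaks and 9.02% over all of them. In the top quartile of WT R2 fold enrichment it was 38.9% (34.7 to 43.2) of 499 common sites and 9.11% (7.09 to 11.6) of 626 other peaks. Intervals here and elsewhere cover counting error only. Common sites with a WT R1 peak had a median WT R2 fold enrichment of 9.80, against 6.97 for those without one.

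Fold enrichment is the peak height over the input background that the peak caller reports. At common sites its median was 7.60 in WT R2 (range 2.66 to 31.5), 7.34 in Spen KO R1 (3.20 to 20.6) and 7.65 in Spen KO R2 (1.75 to 23.6). The other peaks of those lists had medians of 6.27, 6.21 and 6.12. In WT R1, the common sites it held had a median of 6.55 and its other peaks also 6.55. Several sites share a Spen KO peak: the 963 sites correspond to 980 Spen KO R1 and 954 Spen KO R2 autosomal peaks, which were 37.9% and 32.2% of those lists.

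**Figure D1:**
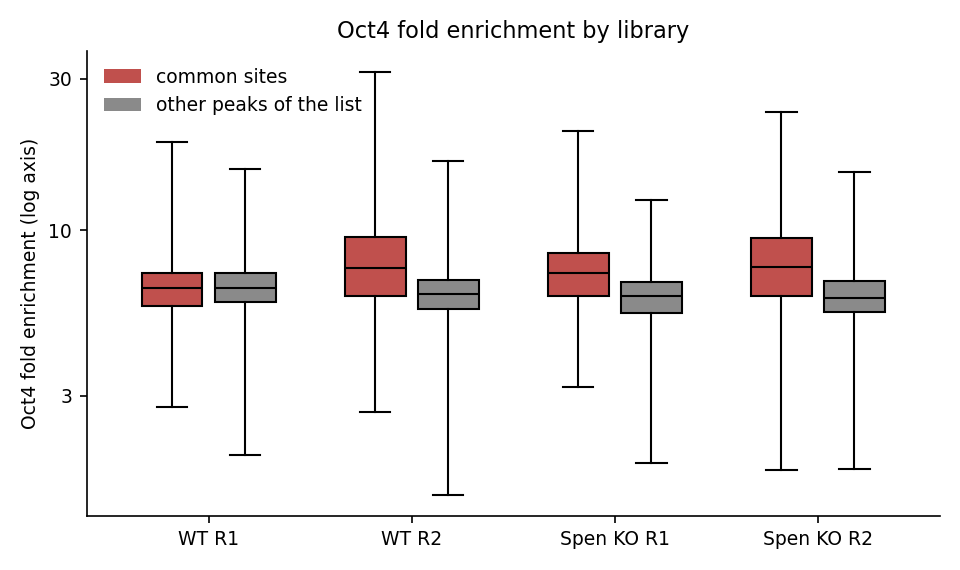
Oct4 fold enrichment (log axis) in each library at common sites and at the other autosomal peaks of the same list. Boxes span the quartiles with the median as a line, and whiskers reach the lowest and highest value; common sites sit higher in WT R2, Spen KO R1 and Spen KO R2, while the medians in WT R1 are both 6.55.

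Between genotypes, fold enrichment at common sites was close to even. The median log2 ratio over WT R2 was -0.04 for Spen KO R1 (SD over sites 0.46) and -0.0048 for Spen KO R2 (SD 0.52). Of the 963 sites, 316 were higher than WT R2 in both Spen KO libraries, 373 were lower in both and 274 were split. Only 1 site was at least 2-fold higher in both and 2 were at least 2-fold lower in both. No test between genotypes was run on these values, since they chose the sites. The rank correlation over sites was 0.29 between WT R2 and Spen KO R1, 0.34 between WT R2 and Spen KO R2, and 0.42 between both Spen KO libraries, over 963 sites that share the choice by these lists. Over the 262 sites with a WT R1 peak, WT R1 correlated at 0.097 with WT R2, 0.043 with Spen KO R1 and 0.17 with Spen KO R2. Differences between these values were not tested. The pairs without WT R1 were not computed over the same 262 sites, so the pairs cannot be ranked by likeness.

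Ranked by the smaller of the rises in Spen KO R1 and R2, first was an intron site nearest to Fbrsl1 (chr5:110866803-110867004). It had 4.31 in WT R2, 13.1 in Spen KO R1, 9.47 in Spen KO R2 and no WT R1 peak. Ranked by the smaller of the drops in Spen KO R1 and R2, first was an intron site nearest to Gm13145 (chr4:146739750-146739963). It had 5.60 in WT R1, 10.2 in WT R2, 4.43 in Spen KO R1 and 4.07 in Spen KO R2. The WT R1 value there lay closer to the Spen KO values than to WT R2. An intron site nearest to Pcsk6, a proprotein convertase (chr7:73018426-73018757), had 15.7 in WT R2, 7.20 in Spen KO R1 and 6.49 in Spen KO R2. The third was in an intron with Gm10032 as the nearest gene, a tandem repeat with H3K9me3 in both genotypes, and had 12.3 in WT R1, 23.1 in WT R2, 7.86 in Spen KO R1 and 11.7 in Spen KO R2. Its mean log2 ratio, -1.270, was slightly lower than the -1.267 of the Gm13145 site. These sites were ranked by the same values that describe them.

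The 12 sites strongest in all 3 lists were nearest to Creb5, Slc35f4, Prickle1, Mycn, Cobl, Gsk3a, Fat1, Kcnk5, Id3, Gtdc1, Lats2 and Rpl12-ps1. Ranked first was a site 13.5 kb from a TSS of Creb5 (chr6:53509124-53509830), with 11.0 in WT R1, 14.5 in WT R2, 12.9 in Spen KO R1 and 14.0 in Spen KO R2. It was a tandem repeat and overlapped H3K9me3 in both genotypes; at 12 common sites (1.25%) fewer than 50% of the 12-letter words around the summit were distinct, against 2.69% of other WT R2 peaks. The site 1192 bp from Mycn, which encodes a MYC-family transcription factor, had 8.27, 15.8, 13.7 and 12.6 in the same order of libraries. The site 3147 bp from Id3, an inhibitor of differentiation factors, had 4.47, 14.6, 13.1 and 12.01. At the promoter of Gsk3a, a kinase of the WNT pathway, the values were 6.71, 12.7, 16.7 and 17.1. The intron site 1023 bp from a TSS of Lats2, a Hippo pathway kinase, had 7.03, 14.1, 10.2 and 15.3. In each of these 5, WT R1 was the lowest of the 4 libraries. The ranking used the 3 other libraries and not WT R1, and WT R2 was above WT R1 at 219 of the 262 common sites with a WT R1 peak. The highest WT R2 value, 31.5, was at a TSS of Mll1, an H3K4 methyltransferase (chr9:44689293-44689783), where WT R1 had 19.0, Spen KO R1 20.6 and Spen KO R2 9.22.

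The choice by overlap has an edge. The members with the smallest overlap shared 1 bp near Grm4 (5.63 in WT R2, 7.48 in Spen KO R1, 5.32 in Spen KO R2) and 3 bp near Basp1 (6.19, 9.35 and 5.61). Just outside it, WT R2 peaks near Pdpn (4.63 in WT R2, 8.62 in Spen KO R2) and Pvrl2 (5.07 and 6.31) touched a Spen KO R1 peak without sharing a base. The median of the smaller overlap was 168 bp, and 44 sites shared under 50 bp.

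Common sites lay mostly away from promoters. Within 1000 bp of a protein-coding TSS were 121 of them (12.6%, 10.6 to 14.8), against 23.7% (22.3 to 25.3) of other WT R2 peaks. The median distance was 17742 bp, against 13370 bp, and the largest class was 10 to 50 kb with 356 sites (37.0%), where 26.7% of the other peaks lay. By summit, 572 sites (59.4%) were outside protein-coding genes, 344 (35.7%) in introns, 31 (3.22%) in UTRs and 16 (1.66%) in other exon sequence. Other WT R2 peaks were at UTRs in 7.17% and in other exon sequence in 5.84%.

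**Figure D2:**
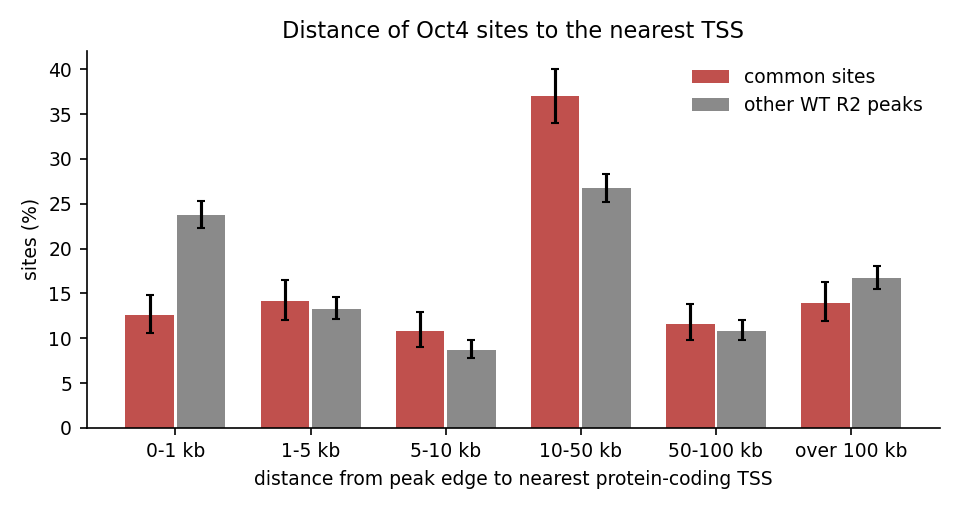
Share of Oct4 sites (%) by distance in kb from the peak edge to the nearest protein-coding TSS, for common sites and other autosomal WT R2 peaks, with Wilson 95% intervals. Common sites are fewer within 1 kb (12.6% against 23.7%) and more numerous at 10 to 50 kb (37.0% against 26.7%).

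Counting sites separated by at most 12.5 kb as a run, 773 sites stood alone and 190 fell in 91 runs, of which 86 held 2 sites. Runs were not counted for other WT R2 peaks, so whether common sites cluster more than those was not tested. The longest run held 6 sites over 2.10 kb in an intron nearest to Nav2, a neuron navigator gene. Of these sites, 4 lay under a single Spen KO R2 peak with a fold enrichment of 15.2. Runs of 3 sites had as nearest gene Klf4, a pluripotency factor, Igf2bp1, Foxd3 or Cbfa2t2. The closest site to Klf4 was 53972 bp from its TSS, beyond the 50 kb used for the gene lists. The 3 sites nearest to Klf4 had WT R2 values of 7.60, 13.3 and 8.12. All of them overlapped H3K27Ac in both genotypes, whereas the 3 nearest to Foxd3 overlapped it in neither. Of sites in runs, 73.2% (66.4 to 79.0) overlapped WT H3K27Ac, against 48.4% (44.9 to 51.9) of single sites. The octamer or its variant, searched as described with the motifs, was less frequent in runs, at 6.84% (4.04 to 11.4) of sites against 14.9% (12.5 to 17.6) of single sites. Neighbouring sites can share an H3K27Ac peak.

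The octamer ATGCAAAT, searched on both strands in 200 bp around the WT R2 summit, was present at 66 common sites (6.85%, 5.42 to 8.63). It was present at 4.35% (3.68 to 5.13) of other WT R2 peaks, 4.94% of all autosomal WT R2 peaks and 0.987% of windows of the same length 1000 bp either side of the common sites. These intervals nearly met. From the lowest to the highest quartile of WT R2 fold enrichment, the shares at common sites were 7.87%, 5.56%, 2.84% and 8.62%, against 3.34%, 4.42%, 4.48% and 5.27% at other peaks. The order turned in the quartile below the highest, and the intervals overlapped in every quartile. Of 8-letter words found at 2% or more of the sites (20 or more), the one most frequent relative to flanks was ATGCTAAT, at 69 sites (7.17%), against 3.28% of other WT R2 peaks and 0.519% of flanks. Either word was present at 13.3% (11.3 to 15.6) of common sites, 7.33% (6.46 to 8.31) of other WT R2 peaks and 8.75% of all. The second word was chosen on these sites, so its share is a description.

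The short joint Sox2 and Oct4 word TTGTNATGC, in which N is any base, can overlap both words. The shortened form was present at 80 common sites (8.31%, 6.73 to 10.2), 3.31% (2.73 to 4.00) of other WT R2 peaks and 4.5% of all, and at 0.675% of flanks. Of 385 autosomal Spen KO R1 peaks that overlapped a Spen KO R2 peak and no WT peak, 5.97% (4.01 to 8.80) held it. Over 1000 bp from a TSS, these peaks had 7.52% (5.06 to 11.0) and common sites 9.03% (7.27 to 11.2). The octamer or its variant was at 8.05% (5.73 to 11.2) of the 385. Over 1000 bp from a TSS it was at 14.8% (11.9 to 18.3) of WT R1 peaks and 14.4% (12.2 to 16.9) of common sites. Matches to the octamer or its variant gathered at the summit. The 50 bp bin just past it held a match at 4.67% of common sites. A match is a description of letters and not evidence that Oct4 was bound there through it.

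**Figure D3:**
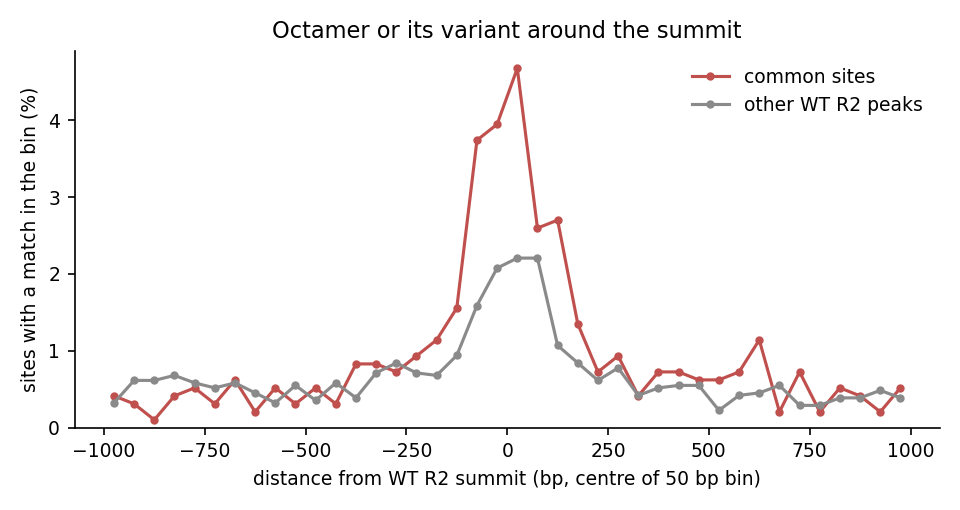
Share of sites (%) with the octamer or its variant in each 50 bp bin, by distance in bp from the WT R2 summit. Common sites reach 4.67% beside the summit and are at most 1.14% beyond 500 bp; other WT R2 peaks rise less.

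H3K27Ac was found at common sites more often than at the other peaks of the same list. In WT cells 513 sites (53.3%, 50.1 to 56.4) overlapped it and in Spen KO cells 496 (51.5%, 48.3 to 54.7). Other WT R2 peaks overlapped it in 28.0% (26.4 to 29.6) and 27.2% (25.7 to 28.8), and all autosomal WT R2 peaks in 34.0% and 33.0%. A similar share was found outside the common sites. Of 385 autosomal Spen KO R1 peaks that overlapped a Spen KO R2 peak and no WT peak, 54.3% (49.3 to 59.2) had H3K27Ac in WT and 56.9% (51.9 to 61.7) in Spen KO cells. Across quartiles of WT R2 fold enrichment, the WT share was 50.2% to 56.3% at common sites and 27.1% to 29.0% at other peaks. Over 1000 bp from a TSS it was 54.2% against 28.2%. Common peaks were also wider, with a median of 280 bp against 172 bp, and the part of width in the overlap was not tested.

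Over all sites H3K4me3 went the other way, at 360 sites (37.4%, 34.4 to 40.5) in WT and 322 (33.4%, 30.5 to 36.5) in Spen KO cells. Other WT R2 peaks had 48.6% and 44.3%, and all had 45.9% and 41.7%. In the top quartile of WT R2 fold enrichment, which held 499 of the common sites, H3K4me3 was not lower, with 35.5% against 33.7% in WT and 31.3% against 28.3% in Spen KO cells. Over 1000 bp from a TSS the WT shares were 30.3% and 34.2%. H3K9me3 overlapped 74 sites (7.68%, 6.17 to 9.54) in WT and 43 (4.47%, 3.33 to 5.96) in Spen KO cells. The values were 14.0% and 11.6% at other WT R2 peaks and 12.5% and 9.89% at all. The Spen KO share was 6.88% with Spen KO R2 left out of the choice and 6.87% with WT R1 required as well, and with a gap of 1000 bp the shares were 12.9% and 10.2%. H3K9me3 regions covered 15.1% of the autosomes in WT and 14.0% in Spen KO cells. Of all common sites, 254 carried H3K27Ac alone in WT cells, 217 carried it with H3K4me3 and without H3K9me3, and 293 carried none of the 3 marks.

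**Figure D4:**
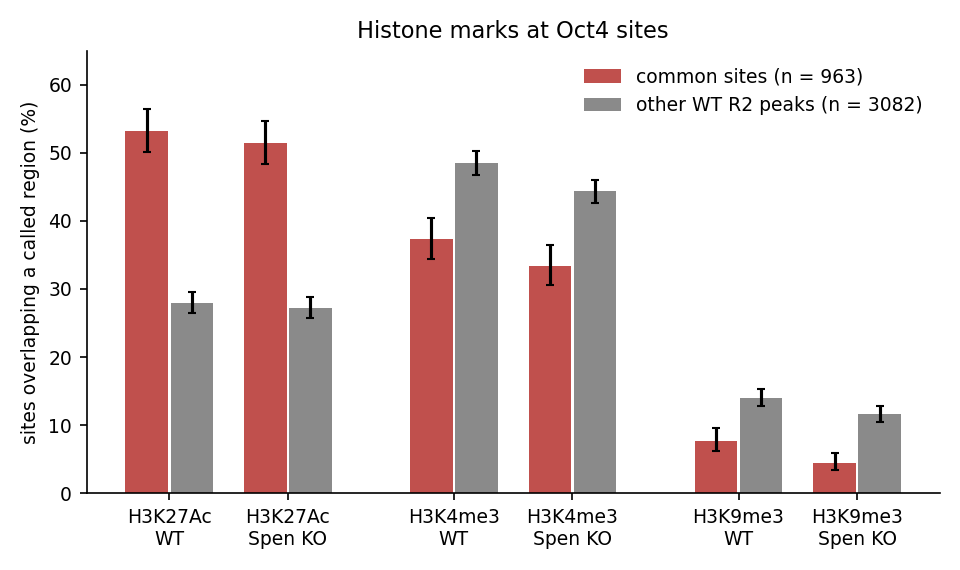
Share of Oct4 sites (%) overlapping a called region of each histone mark in WT and Spen KO cells, for common sites and other autosomal WT R2 peaks, with Wilson 95% intervals. H3K27Ac is higher at common sites (53.3% against 28.0% in WT), and H3K4me3 and H3K9me3 are lower in both genotypes.

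Most sites with H3K27Ac or H3K4me3 had it in both genotypes. H3K27Ac was called in both at 434 sites, in WT only at 79 (8.20%, against 6.18% of all WT R2 peaks) and in Spen KO only at 62 (6.44%, against 5.17%). H3K4me3 was called in both at 285, in WT only at 75 (7.79%, against 6.67%) and in Spen KO only at 37 (3.84%, against 2.5%). The 75 became 48 when 50% of the Oct4 peak had to be covered. H3K9me3 was called in both at 37, in WT only at 37 (3.84%, against 3.93%) and in Spen KO only at 6 (0.623%, against 1.29%), a count that became 18 when a gap of 1000 bp was allowed. These shares are of all sites, with or without the mark. Among sites with a WT call, it was WT only at 79 of 513 common sites for H3K27Ac, against 250 of 1376 of all WT R2 peaks. For H3K4me3 this was 75 of 360 against 270 of 1857, and for H3K9me3, 37 of 74 against 159 of 507. Among sites with a Spen KO call, it was Spen KO only at 62 of 496 against 209 of 1335 for H3K27Ac. For H3K4me3 this was 37 of 322 against 101 of 1688, and for H3K9me3, 6 of 43 against 52 of 400. Each mark had a single list per genotype, so these counts have no replicate check. The WT lists of H3K27Ac (13922 peaks) and H3K4me3 (34823) were longer than the Spen KO lists (11932 and 31091), while for H3K9me3 the Spen KO list held more regions (70268 against 53745).

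Among sites with H3K27Ac in WT only and no Spen KO peak within 1000 bp, which numbered 57, the strongest after the Creb5 repeat lay 977 bp from Shf and 499 bp from a TSS of Tcf7l1. Tcf7l1 is a repressor in the WNT pathway. Its site had 5.91 in WT R1, 13.9 in WT R2, 9.60 in Spen KO R1 and 11.8 in Spen KO R2. Of the 36 with H3K27Ac in Spen KO only by the same rule, the strongest was an intron site nearest to Setd1b, an H3K4 methyltransferase. It had 8.14, 11.5, 12.2 and 13.1 in that order. H3K4me3 in WT only, with no Spen KO peak within 1000 bp, was called at 37 sites. The strongest lay in an intron 1325 bp from Gm6792, with 10.1 in WT R2, 12.8 in Spen KO R1 and 10.1 in Spen KO R2. The next, 53972 bp from Klf4, had 8.46 in WT R1, 8.12 in WT R2, 12.1 in Spen KO R1 and 13.2 in Spen KO R2. H3K4me3 in Spen KO only, by the same rule, was called at 22 sites. The strongest of these lay 15.0 kb from Klf2 and had 9.57 in WT R2, 10.6 in Spen KO R1 and 14.1 in Spen KO R2.

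With H3K9me3 in WT only, the strongest site was in an intron, 85234 bp from a TSS of its nearest gene, Gm4609 (chr3:121848181-121848880). It had 13.4 in WT R1, 11.1 in WT R2, 17.3 in Spen KO R1 and 23.6 in Spen KO R2, so both Spen KO values were above both WT values. The next, an intron site nearest to Zfp385b, had 4.26, 13.3, 11.2 and 9.47, with WT R2 the highest. Sites with H3K9me3 in both genotypes included the one near Ssr2, with 6.93, 11.8, 15.5 and 13.3.

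Genes of pluripotency often had a common site nearby. Of 21275 autosomal protein-coding genes, 6.16% had one within 50 kb of a TSS. The count was 12 of 20 pluripotency transcription factors and 12 of 24 other pluripotency genes. It was 7 of 18 LIF and STAT3 pathway genes, 5 of 16 genes of primed pluripotency, 6 of 26 early lineage regulators and 5 of 22 Notch pathway genes. Spen and its partners had 3 of 12, the H3K9me3 machinery 2 of 16 and cytosolic ribosomal proteins 5 of 72. Of the cell type markers, 5 of 8 mESC, 1 of 11 fibroblast and 0 of 8 primitive endoderm genes had one. Genes in a list can share a site and lists share genes, and a nearby site need not act on the gene.

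Near Pou5f1, which encodes Oct4 itself, the site 1698 bp from a TSS had 10.4 in WT R1, 10.6 in WT R2, 8.35 in Spen KO R1 and 12.5 in Spen KO R2. The WT and Spen KO values overlapped. The site 3857 bp from Sox2, the partner factor, had 7.88 in WT R2, 9.35 in Spen KO R1 and 5.92 in Spen KO R2, and no WT R1 peak. Both sites overlapped H3K27Ac and H3K4me3 in both genotypes.

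Near Esrrb, an orphan nuclear receptor of the naive network, the site had 6.74 in WT R1, 6.66 in WT R2, 11.8 in Spen KO R1 and 11.5 in Spen KO R2. Prdm14, a repressor of differentiation genes, had 6.71, 9.80, 13.7 and 12.3 in the same order of libraries. Tfcp2l1, a factor of self-renewal downstream of LIF, had 6.55, 8.45, 9.45 and 14.5, with neither H3K27Ac nor H3K4me3 called at the Oct4 site. Within 1000 bp of a TSS of Tfcp2l1, H3K27Ac was called in WT only and H3K4me3 in both genotypes. Both Spen KO values were above both WT values at these 3 sites, which were picked for their enrichment, so this is a description. Standing above WT R1 was common: of 262 common sites with a WT R1 peak, Spen KO R1 was higher at 192 and Spen KO R2 at 219. Against WT R2, 316 of the 963 sites were higher in both Spen KO libraries and 373 were lower in both. Sall1, a zinc finger factor, had 6.55, 11.8, 11.8 and 13.4, so that only Spen KO R2 stood clearly above both WT libraries.

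**Figure D5:**
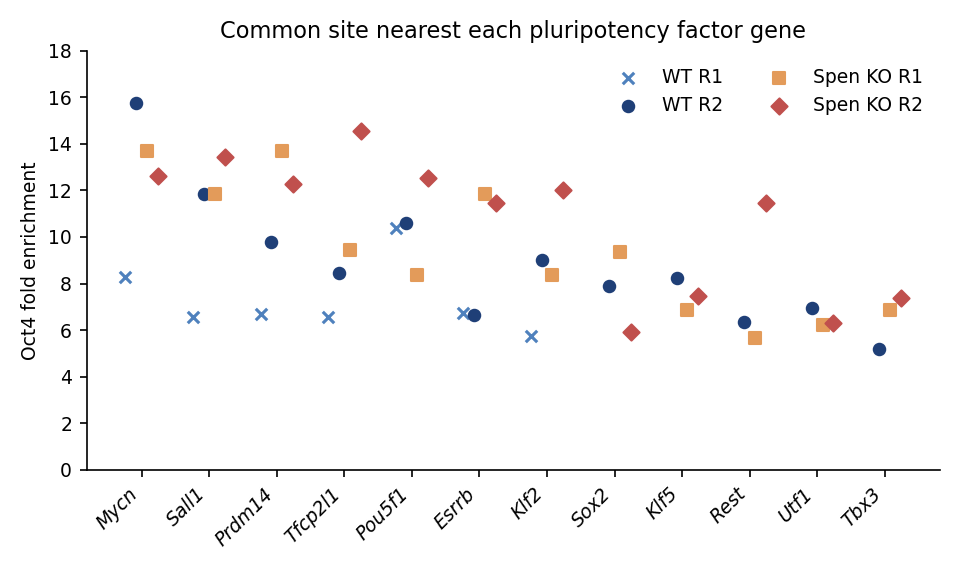
Oct4 fold enrichment in each library at the common site nearest each of the 12 pluripotency transcription factor genes with a site within 50 kb. A missing cross means that WT R1 has no peak there; WT R1 is below the other libraries at Mycn, Sall1, Prdm14, Tfcp2l1 and Klf2.

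Dppa3, a maternal and germline factor, had 5.28 in WT R1, 11.4 in WT R2, 9.35 in Spen KO R1 and 11.8 in Spen KO R2, and the same site was the nearest to Gdf3. Tet2, a DNA demethylation enzyme, had 7.31, 9.50, 9.97 and 13.3 in that order, with both Spen KO values above both WT values. Trim71, an RNA-binding protein of early development, had 10.1 in WT R2, 8.35 in Spen KO R1 and 10.4 in Spen KO R2. Tdgf1, a co-receptor for Nodal, had 8.87, 10.6 and 9.07 in the same libraries. Lifr, a receptor subunit for LIF, had 6.19, 11.2 and 9.87.

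At the sites nearest the 6 early lineage genes, H3K27Ac was called in neither genotype, which was so at 40.3% of all common sites. Among the 5 primed pluripotency genes, the sites nearest Lef1, Zic5 and Sox11 had H3K27Ac in both genotypes, the Otx2 site had it in Spen KO only and the Sfrp2 site in neither. No difference between gene lists was tested. The Neurog1 promoter site, near a neurogenic factor, had 6.87 in WT R1, 10.2 in WT R2, 9.97 in Spen KO R1 and 10.9 in Spen KO R2. The site 380 bp from Cdx2, a trophectoderm factor, had 7.27 in WT R2, 5.17 in Spen KO R1 and 9.33 in Spen KO R2. The sites nearest the 5 Notch pathway genes, among them the receptors Notch1 and Notch2 and the ligand Dll1, also had no H3K27Ac call. All 5 overlapped WT H3K4me3, as did 37.4% of all common sites and 86.8% of those within 1000 bp of a TSS. The Notch1 and Notch2 sites lay that close to a TSS. The Dll1 site had 6.35 in WT R1, 11.4 in WT R2, 5.90 in Spen KO R1 and 9.07 in Spen KO R2.

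Among the silencing and Spen-related genes, the site 9541 bp from Trim28, a corepressor that recruits the H3K9me3 machinery, had 7.12 in WT R1, 10.7 in WT R2, 9.04 in Spen KO R1 and 12.5 in Spen KO R2. A site 26.6 kb from Spen had 8.65, 10.7, 7.48 and 11.7 in that order. Both overlapped H3K27Ac in both genotypes, and the genotypes' values overlapped at each.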

How the data were processed

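ChIP-seq peak lists of 28 samples were used, grouped by their labels. Per their methods, the authors aligned paired reads by Bowtie2 (mm9), discarded ambiguous or discordant pairs and Picard duplicates, and used MACS2 with input as control. The deposited Oct4 lists, 1 per library, give fold enrichment (a ratio over background), −log10 of the p-value and of the q-value, and the summit offset; the lowest −log10 q is 2.00. The deposited H3K27Ac and H3K4me3 lists combine both libraries by the irreproducible discovery rate, with 1 value per library. The deposited H3K9me3 lists hold a score and a p-value per region, without summits or a rate per library pair. The methods give MACS2 and the same rate for histone marks generally; whether these lists came from those steps, or pooled libraries, is not stated.

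Overlap needed 1 bp. Where several Spen KO peaks overlapped a site, the strongest gave its value. Genes were from GENCODE M1 on NCBIM37, with older symbols matched through RefSeq names; Sox1 and Rpl41 were not matched, and Suv39h1 and Atrx are not autosomal. Named sites followed fixed rankings by fold enrichment, by its ratio or by overlap, except that the Mll1 site, the Cbfa2t2 run (tied in size) and the printed sequences were chosen after their values were seen. The members and gene lists were chosen with earlier results of these data known. Shares carry Wilson 95% intervals, and no test was run. Overlap, nearest-TSS and motif functions were checked on simulated data. Python 3 with pandas, SciPy and pysam was used.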

Additional observations from a re-analysis of the deposited data

How the results depend on the processing

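The alternatives were run on the common sites only. Differences from other WT R2 peaks were not rechecked under them, apart from the split by distance to a TSS and the search for either word, given above. Among common sites, the order of the genotypes in the mark shares and the sign of the log2 ratio did not change, except as stated here. Unless 1 library is named, the log2 ratio here is the mean of both Spen KO libraries over WT R2 at each site. Its median over sites was -0.048 in the main setting. Summits within 100 bp left 523 sites, with a log2 ratio of -0.089, H3K27Ac at 48.2% (WT) and 47.0% (Spen KO) and H3K4me3 at 32.7% and 29.6%. Requiring −log10 q of 5 left 558 sites, with median fold enrichments of 8.24 (WT R2), 8.10 (Spen KO R1) and 8.53 (Spen KO R2), 36.7% in WT R1, 10.2% at a TSS and 57.0% with WT H3K27Ac. Requiring WT R1 as well left 262 sites, with medians of 9.80, 8.10 and 9.47, a log2 ratio of -0.17, 17.9% at a TSS, H3K27Ac at 48.1% and 43.9%, WT H3K4me3 at 41.6%, Spen KO H3K9me3 at 6.87% and the octamer at 8.78%. Spen KO R1 coordinates gave a log2 ratio of -0.081, centring gave -0.0043 and Spen KO R2 alone gave -0.0048. Leaving out 1 of the 3 libraries gave 1177 to 1643 sites, the most without Spen KO R1. It gave medians of 7.32 to 7.60 (WT R2), 6.85 to 7.34 (Spen KO R1) and 6.93 to 7.65 (Spen KO R2), a log2 ratio of -0.081 to -0.041, 19.4% to 23.4% in WT R1, 13.0% to 16.2% at a TSS, WT H3K27Ac at 46.7% to 53.5%, Spen KO H3K27Ac at 45.3% to 52.2% and Spen KO H3K9me3 at 4.86% to 6.88%. The TSS share was 9.45% at 500 bp, 26.7% at 5000 bp and 15.9% with genes of every biotype. A gap of 1000 bp gave H3K27Ac at 62.4% and 57.9%, H3K4me3 at 50.3% and 45.5% and H3K9me3 at 12.9% and 10.2%. Covering 50% of the Oct4 peak gave H3K27Ac at 44.9% and 45.4% and H3K4me3 at 29.3% and 28.1%, so that the genotypes' order for H3K27Ac turned. Away from TSSs, an alternative chosen after seeing the data, H3K4me3 was at 30.3% and 26.5%. The octamer was in 10.5% of whole peaks, 3.95% of 100 bp windows and 41.5% with 1 mismatch, and either word, also added later, in 13.3%. Sites with H3K4me3 in WT only fell to 48 under 50% coverage, and those with H3K9me3 in Spen KO only rose to 18 with the gap. The cause of these shifts was not tested. No paired analysis was possible because no result here comes from a test. A peak missing from a list may lie just under its threshold, and with unknown depth the lists cannot show whether Oct4 was absent there.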
